A study of Mus musculus with 6 samples.

Results

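Notch receptors, their ligands and 2 of their target genes were followed in neonatal islet cells sorted by their history of Wnt4 expression. The set holds 10 genes of 45616 features tested, chosen by name: the receptors Notch1, Notch2, Notch3 and Notch4, the ligands Dll1, Dll4, Jag1 and Jag2, and the targets Hes1 and Hey1. These genes are represented by 11 of 56605 probes, found through the RefSeq transcript listed for each probe, and Notch4 is the member with 2 probes. By the series' design, all cells came from P1 Wnt4eGFPCre;mTmG pups raised on crosses to C57BL/6J. They carry Wnt4 tm2(EGFP/cre)Svo, which places EGFP and Cre under Wnt4 control, and the Gt(ROSA)26Sor reporter tm4(ACTB-tdTomato,-EGFP)Luo, which changes from membrane tdTomato to membrane GFP (mGFP) after Cre activity. Wnt4hi cells were sorted as mGFP+ (replicates 2, 3 and 4) and Wnt4low cells as mGFP- (replicates 1, 3 and 4). Each of the 6 samples was a pool of islets from 3 or 4 pups and was hybridised to 1 single-color array.

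Several features of the groups limit them as a model. mGFP records past and not present Wnt4 transcription, since native GFP was too weak to sort. The mGFP- gate takes every dissociated islet cell without that history, endocrine or not. The sample labels record the mGFP- cells as Wnt4neg, and a legend of the study names the matching genotype as lacking the Wnt4eGFPCre transgene, so whether both populations were split from the same pools was not settled here. Wnt4 itself, a secreted Wnt ligand, had log2 intensities of 11.20, 10.53 and 10.77 in Wnt4hi and 9.85, 10.11 and 9.31 in Wnt4low. The difference was 1.08 (SE 0.27, limma adjusted p = 0.212), and every Wnt4hi array was above every Wnt4low array.

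Notch receptors are transmembrane proteins that are activated by Delta-like and Jagged ligands on neighbouring cells. Ligand binding exposes the receptor to cleavage by ADAM proteases and then by gamma-secretase, and the released intracellular domain enters the nucleus, joins RBPJ and Mastermind-like coactivators and switches on repressors of the Hes and Hey families. In the embryonic pancreas the pathway keeps progenitors from entering the endocrine programme through Hes1, and in blood vessels Notch1, Notch4 and Dll4 act in endothelial cells while Notch3 acts in pericytes and smooth muscle.

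Promoter sequences are shown for the members with non-overlapping populations that have an entry in the RefSeq promoter table (GRCm38.p6), namely Notch3, Notch4 and Jag1. Lfng, a modifier of Notch receptors that passed the adjusted threshold, is added. Each window is the 250 bases before the annotated start, read 5′ to 3′ on the strand of the gene. The windows are chr17:32166891-32167140 on the minus strand for Notch3, chr17:34564045-34564294 on the plus strand for Notch4, chr2:137116521-137116770 on the minus strand for Jag1 and chr5:140607091-140607340 on the plus strand for Lfng. Capitals mark matches on either strand to 3 motifs: TGGGAA, the core bound by RBPJ, CACGNG, the class of sites bound by Hes and Hey proteins, and CAGGAA, a core of ETS factors.
Notch3: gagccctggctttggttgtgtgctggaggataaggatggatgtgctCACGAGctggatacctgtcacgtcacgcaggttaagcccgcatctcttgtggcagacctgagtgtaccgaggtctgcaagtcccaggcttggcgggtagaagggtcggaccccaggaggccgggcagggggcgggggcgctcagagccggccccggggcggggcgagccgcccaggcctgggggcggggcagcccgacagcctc
Notch4: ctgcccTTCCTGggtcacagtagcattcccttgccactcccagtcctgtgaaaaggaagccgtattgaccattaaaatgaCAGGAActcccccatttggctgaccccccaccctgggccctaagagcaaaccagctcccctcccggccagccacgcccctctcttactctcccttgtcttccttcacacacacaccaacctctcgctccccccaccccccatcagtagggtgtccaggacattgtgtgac
Jag1: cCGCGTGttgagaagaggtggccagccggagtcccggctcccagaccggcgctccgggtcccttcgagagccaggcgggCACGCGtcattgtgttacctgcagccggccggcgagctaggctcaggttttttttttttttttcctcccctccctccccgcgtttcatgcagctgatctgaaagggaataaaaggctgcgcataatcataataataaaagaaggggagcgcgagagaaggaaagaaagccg
Lfng: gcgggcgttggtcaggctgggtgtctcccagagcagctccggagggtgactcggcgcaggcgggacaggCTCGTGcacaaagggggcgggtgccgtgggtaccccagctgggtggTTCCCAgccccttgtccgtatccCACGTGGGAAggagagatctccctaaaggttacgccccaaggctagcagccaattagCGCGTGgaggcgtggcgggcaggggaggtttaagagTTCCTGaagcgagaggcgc

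Of the 10 members, 8 had an entry, with 9 windows because Dll1 has 2 annotated starts. The RBPJ core was found in 0 of these 9 windows and in 21.6% of the 32851 mouse promoter windows of the same length. The Notch3 window held 1 Hes and Hey class site and the Jag1 window held 2, where 23.5% of all windows held at least 1. The Notch4 window held 2 ETS cores, against at least 1 in 25.7% of all windows. Neither motif was particular to the members shown. Hes and Hey class sites also occurred in the windows of Notch2, Dll4 and Dll1 (each window), and an ETS core in that of Notch1. These further members all overlapped between the populations. The Lfng window held 2 RBPJ cores, 3 Hes and Hey class sites and 1 ETS core, and 1 of its RBPJ cores overlaps a Hes and Hey class site, which makes the longest run of capitals. These are matches of letters in a short window and no measure of binding.

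Notch members were mostly lower in the Wnt4hi population. Of the 10 members, 9 had a log2 difference (Wnt4hi minus Wnt4low) below 0 and 1, Dll1, above it, and the median was -0.89, where the median of all features was 0.07 and 36.5% of features were below 0. With the threshold of the study's methods, an unadjusted p below 0.05, 6 members were lower (Notch3, Notch4, Jag1, Jag2, Hes1 and Hey1), against a background of 5.53% of features called lower, and 0 were higher, against 5.02%. The populations were fully separated for 5 of them, Notch3, Notch4, Jag1, Hes1 and Hey1, where 6.44% of all features were lower without overlap. After Benjamini-Hochberg adjustment over all features, 1 member, Notch4, was called, against 0.403% of features called lower. Intensities below are log2 values of limma-normalized arrays, and means are given ± SD (n = 3 arrays per population).

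**Figure D1:**
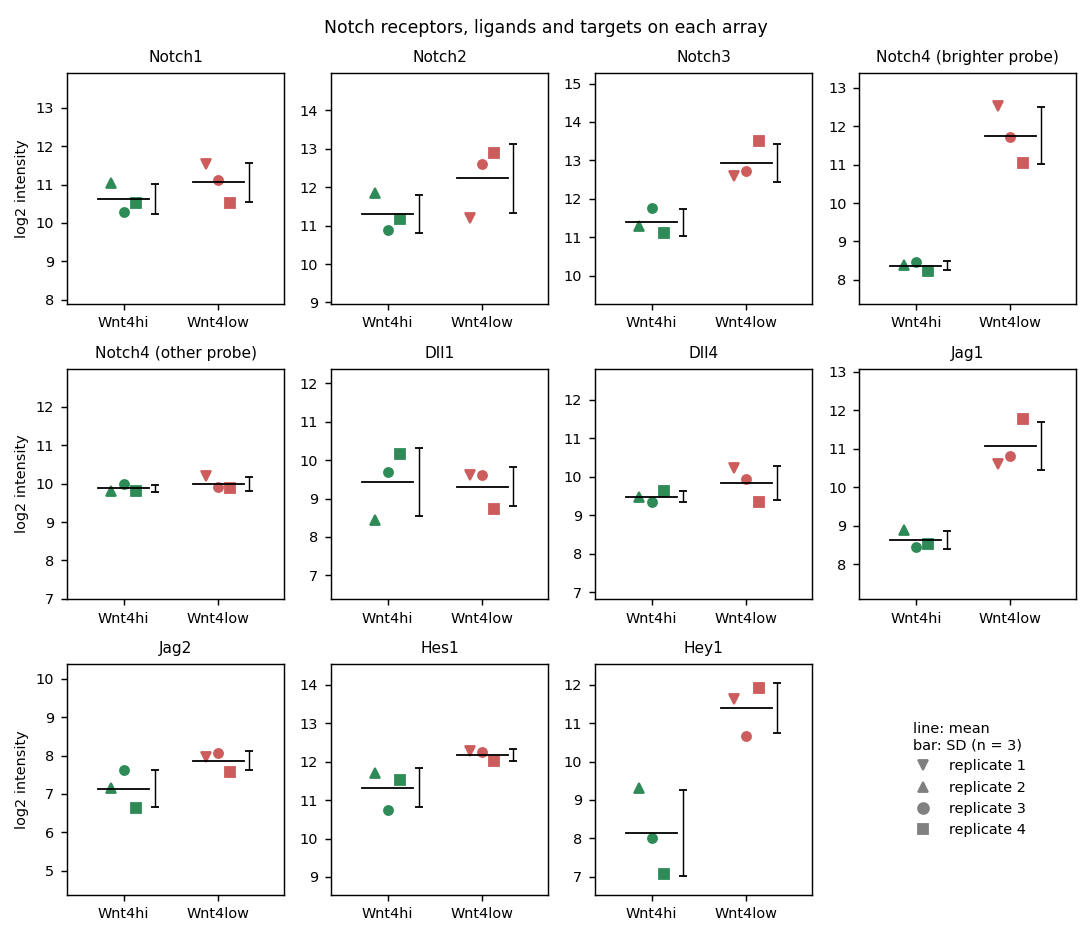
Log2 intensity (vertical axis, the same span in every panel) of each Notch member on each array, by population (horizontal axis, Wnt4hi or Wnt4low), with lines for the mean and bars for ± SD of 3 arrays and 1 symbol per replicate number. The brighter Notch4 probe, Jag1 and Hey1 show wide gaps between the populations, whereas the other Notch4 probe and Dll1 overlap.

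Among the receptors, Notch4 differed most. It is a receptor found mainly in endothelial cells. Its brighter probe read 8.39, 8.47 and 8.24 in Wnt4hi (mean 8.37 ± 0.12) and 12.52, 11.71 and 11.04 in Wnt4low (mean 11.76 ± 0.74). All Wnt4hi arrays lay within a narrow band, and the nearest Wnt4low array was 2.57 above it. Notch4 was 10.5-fold lower in Wnt4hi (log2 difference -3.39, SE 0.37, 95% interval -4.29 to -2.50, limma adjusted p = 0.0364). The other Notch4 probe, listed under the same transcript and well above background on all arrays, read 9.82, 9.99 and 9.81 in Wnt4hi and 10.21, 9.90 and 9.89 in Wnt4low. There the populations overlapped and the difference was -0.13 (SE 0.15, interval -0.50 to 0.24, adjusted p = 0.849). The probes therefore disagreed on Notch4, and with the mean of both the difference was -1.76 (adjusted p = 0.0518). Leaving out any single array raised the adjusted p of the brighter probe to between 0.0665 and 0.143, with differences from -3.76 to -2.99.

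Notch3, the receptor of pericytes and vascular smooth muscle, was also lower in Wnt4hi. Its intensities were 11.28, 11.77 and 11.10 in Wnt4hi (mean 11.38 ± 0.35) and 12.59, 12.72 and 13.50 in Wnt4low (mean 12.94 ± 0.49). The populations did not overlap, with replicate 4 the highest of the Wnt4low arrays and the lowest of the Wnt4hi arrays. The level in Wnt4hi was 2.93-fold lower (log2 difference -1.55, SE 0.30, interval -2.29 to -0.82), which passed the unadjusted threshold but not the adjusted one (limma adjusted p = 0.120).

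Notch1 and Notch2, the receptors with the broadest expression, overlapped between the populations. Notch1 read 11.05, 10.30 and 10.52 in Wnt4hi (mean 10.62 ± 0.39) and 11.52, 11.13 and 10.52 in Wnt4low (mean 11.06 ± 0.51). Its highest array was Wnt4low replicate 1, and the Wnt4low replicate 4 array sat among the Wnt4hi arrays. The difference was -0.43 (SE 0.32, interval -1.21 to 0.34, adjusted p = 0.740), and it ranged from -0.20 without Wnt4low replicate 1 to -0.70 without Wnt4low replicate 4. Notch2 read 11.86, 10.88 and 11.17 in Wnt4hi (mean 11.30 ± 0.50) and 11.20, 12.61 and 12.89 in Wnt4low (mean 12.23 ± 0.90). Replicate 1 of Wnt4low stood apart from the other Wnt4low arrays and within the range of Wnt4hi. The difference was -0.93 (SE 0.49, interval -2.13 to 0.27, adjusted p = 0.614). It ranged from -0.61 without Wnt4low replicate 4 to -1.42 without Wnt4low replicate 1, the latter past the unadjusted threshold (limma adjusted p = 0.253).

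**Figure D2:**
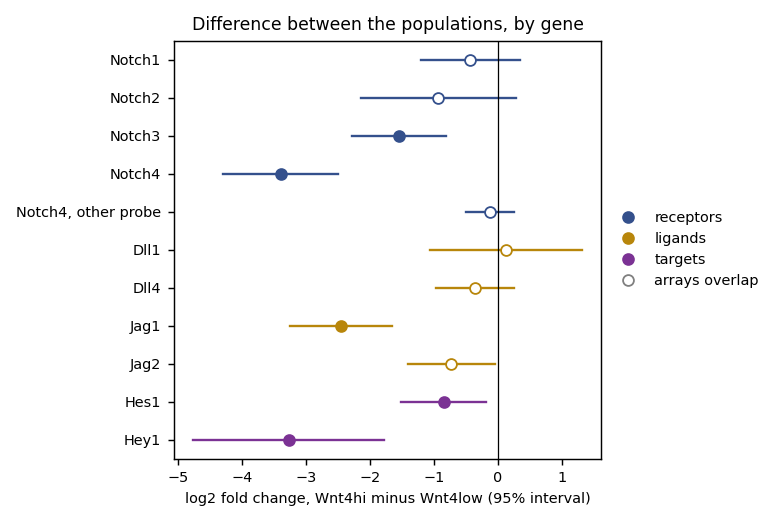
Log2 difference (horizontal axis, Wnt4hi minus Wnt4low) of each Notch member with its 95% interval from limma, colored by role, with open points where arrays of the populations overlap. The brighter Notch4 probe (-3.39), Hey1 (-3.26) and Jag1 (-2.45) lie farthest from 0, and the intervals of Notch1, Notch2, Dll1, Dll4 and the other Notch4 probe span it.

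Of the ligands, Jag1 was the one with separated populations. Jag1 is a Jagged ligand carried by vascular smooth muscle, endothelial and many epithelial cells. It read 8.88, 8.45 and 8.53 in Wnt4hi (mean 8.62 ± 0.23) and 10.61, 10.82 and 11.78 in Wnt4low (mean 11.07 ± 0.62). The Wnt4hi arrays were close together, and the lowest Wnt4low array was 1.72 above the highest of them. Jag1 was 5.47-fold lower in Wnt4hi (log2 difference -2.45, SE 0.33, interval -3.25 to -1.65), past the unadjusted threshold and just outside the adjusted one (limma adjusted p = 0.0563).

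Jag2, the other Jagged ligand, was dim, with spots well above background on 1 Wnt4hi array and 2 Wnt4low arrays. It read 7.17, 7.61 and 6.63 in Wnt4hi (mean 7.14 ± 0.49) and 7.95, 8.06 and 7.58 in Wnt4low (mean 7.87 ± 0.25). The populations overlapped narrowly, at Wnt4hi replicate 3 and Wnt4low replicate 4. The difference of -0.73 (SE 0.28, interval -1.41 to -0.04) passed the unadjusted threshold and not the adjusted one (adjusted p = 0.436). It missed the unadjusted threshold too without Wnt4hi replicate 2 (-0.74), Wnt4hi replicate 4 (-0.48), Wnt4low replicate 1 (-0.68) or Wnt4low replicate 3 (-0.63).

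The Delta-like ligands overlapped between the populations. Dll4, the Delta-like ligand of arteries and sprouting vessels, read 9.47, 9.34 and 9.64 in Wnt4hi (mean 9.48 ± 0.15) and 10.23, 9.94 and 9.34 in Wnt4low (mean 9.84 ± 0.45). Replicate 4 of Wnt4low was at the level of the lowest Wnt4hi array, while the other Wnt4low arrays were above all of Wnt4hi. The difference was -0.35 (SE 0.25, interval -0.96 to 0.25, adjusted p = 0.728), and it ranged from -0.15 without Wnt4low replicate 1 to -0.60 without Wnt4low replicate 4, the latter past the unadjusted threshold (limma adjusted p = 0.396). Dll1, the Delta-like ligand best known from endocrine progenitors in the pancreas, read 8.45, 9.68 and 10.16 in Wnt4hi (mean 9.43 ± 0.88) and 9.61, 9.60 and 8.72 in Wnt4low (mean 9.31 ± 0.51). Both the highest and the lowest array belonged to Wnt4hi, and the difference of 0.12 (SE 0.49, interval -1.07 to 1.31, adjusted p = 0.964) was smaller than the spread in either population. Its sign turned when Wnt4hi replicate 3 (-0.0046), Wnt4hi replicate 4 (-0.25) or Wnt4low replicate 4 (-0.18) was left out.

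Both targets were lower in Wnt4hi at the unadjusted threshold. Hey1, a transcriptional repressor of the Hey family that responds to Notch in vessels and other tissues, read 9.31, 8.01 and 7.08 in Wnt4hi (mean 8.14 ± 1.12) and 11.62, 10.67 and 11.91 in Wnt4low (mean 11.40 ± 0.65). It was well above background on 2 of the 3 Wnt4hi arrays and on all Wnt4low arrays, and the populations were separated by 1.36 although the Wnt4hi arrays were spread widely. Hey1 was 9.61-fold lower in Wnt4hi (log2 difference -3.26, SE 0.61, interval -4.76 to -1.77), past the unadjusted threshold and not the adjusted one (limma adjusted p = 0.111). The dimmest Wnt4hi array lay below the lowest signal called well above background there (7.63), so the size of the difference is uncertain.

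Hes1, the repressor through which Notch holds back endocrine differentiation, moved less. It read 11.70, 10.75 and 11.53 in Wnt4hi (mean 11.33 ± 0.51) and 12.28, 12.24 and 12.01 in Wnt4low (mean 12.18 ± 0.15). The Wnt4low arrays were close together and all lay above Wnt4hi, by 0.30 at the nearest. Hes1 was 1.80-fold lower in Wnt4hi (log2 difference -0.85, SE 0.27, interval -1.51 to -0.19, limma adjusted p = 0.331). It passed the unadjusted threshold, but missed it without Wnt4low replicate 1 (-0.78) or Wnt4low replicate 3 (-0.81).

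The members did not vary together within Wnt4low. Notch1, Notch4, Dll1, Dll4 and Hes1 had replicate 1 as the highest and replicate 4 as the lowest Wnt4low array, whereas Notch2, Notch3 and Jag1 had the reverse. Jag2 was highest on replicate 3 and Hey1 on replicate 4. With 3 arrays these rankings are a description only.

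The same arrays differed in the markers of other cell types. The summed linear intensity of 14 endothelial markers ranged from 6106 to 8930 in Wnt4hi and from 42892 to 87151 in Wnt4low, and was highest on Wnt4low replicate 1. All 14 were lower in Wnt4hi, 13 at the unadjusted threshold and 8 after adjustment, with a median log2 difference of -3.46. The defining endothelial markers Pecam1 (-3.04, adjusted p = 0.0361), Cdh5 (-3.58, adjusted p = 0.024) and Kdr (-3.96, adjusted p = 0.0183) were still well above background on all Wnt4hi arrays, while Tek and Tie1 were not well above background on any. Markers of arterial endothelium (6 genes) summed to 4144 to 6385 in Wnt4hi and 9963 to 77943 in Wnt4low, with 2 of 6 lower at the unadjusted threshold and Wnt4low replicate 1 again the highest. Gja4, an arterial gap junction gene, read 15.94 on that array and 11.12 and 11.32 on the other Wnt4low arrays, and was not called (adjusted p = 0.50).

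Pericyte and smooth muscle markers (8 genes) summed to 29061 to 39157 in Wnt4hi and 52565 to 72111 in Wnt4low, with 5 of 8 lower at the unadjusted threshold and a median of -1.40. Mesenchymal markers (6 genes) summed to 13257 to 42608 in Wnt4hi and 47434 to 56928 in Wnt4low, with 4 of 6 lower and a median of -1.18. Duct markers (8 genes), another cell type in which Notch acts, summed to 9847 to 12242 in Wnt4hi and 9181 to 17369 in Wnt4low, with a median of 0.14 and 1 of 8 called, Spp1, which was lower. Leukocyte markers (8 genes) summed to 8465 to 13526 in Wnt4hi and 14393 to 16656 in Wnt4low, with 4 of 8 lower at the unadjusted threshold.

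Beta, alpha and endocrine progenitor markers ran the other way. Beta cell markers (10 genes) summed to 327985 to 336163 in Wnt4hi and 190372 to 292872 in Wnt4low, with 6 of 10 higher at the unadjusted threshold, and alpha cell markers (8 genes) to 62388 to 110196 and 11030 to 60372, with 3 of 8 higher. Markers of endocrine progenitors (7 genes) summed to 36690 to 43781 in Wnt4hi and 10058 to 22843 in Wnt4low, with 4 of 7 higher at the unadjusted threshold (Neurod1, Nkx2-2, Rfx6 and Fev) and a median of 1.02. Neurog3, the factor that starts the endocrine programme, did not pass (0.32, adjusted p = 0.795). Neither did Pax4 (0.13, adjusted p = 0.914) or Insm1 (1.02, adjusted p = 0.478). Whether Wnt4hi held more endocrine progenitors was not tested. The 4 delta cell markers had a median of -0.64, with 1 higher and 2 lower at the unadjusted threshold. Medians of acinar, Schwann cell and erythroid markers were -0.94, -0.51 and -0.98. In bulk samples, fewer cells of a type and less RNA per cell cannot be told apart. What part the mixture of cell types has in the Notch differences was not tested.

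**Figure D3:**
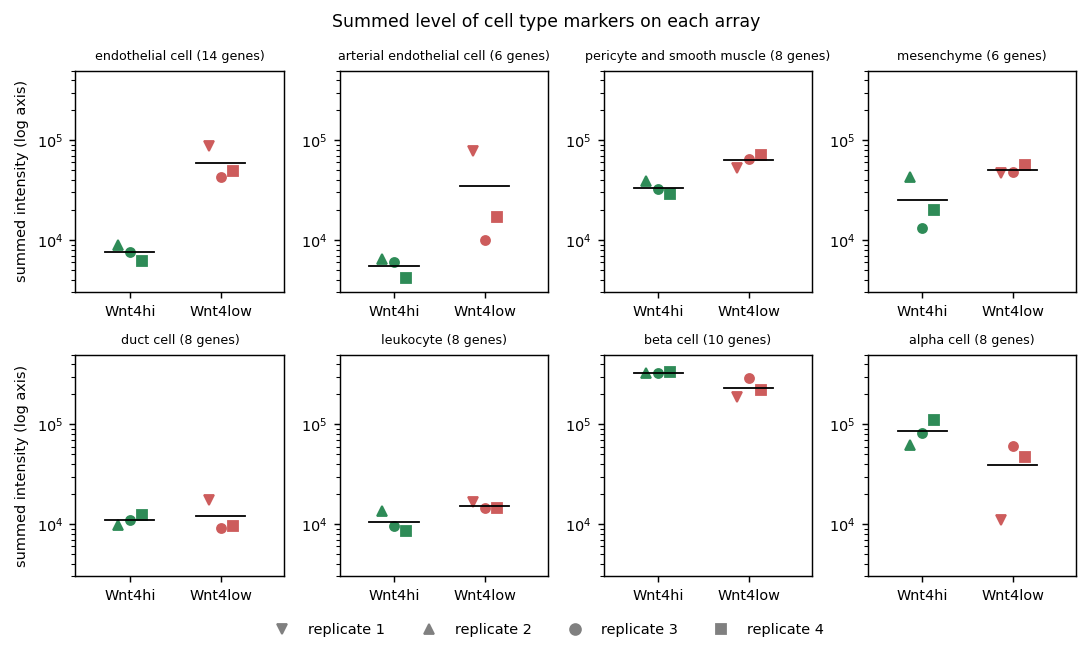
Summed linear intensity of cell type markers (vertical axis, log scale) on each array, by population (horizontal axis), with lines for the mean of 3 arrays and 1 symbol per replicate number. Endothelial markers sum to 6106 to 8930 in Wnt4hi and 42892 to 87151 in Wnt4low, while beta and alpha cell markers are higher in Wnt4hi.

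The median of the rest of the pathway was near 0. Of 59 other Notch pathway genes listed, 58 were measured, 27 higher and 31 lower in Wnt4hi, with a median of -0.02. At the unadjusted threshold 10 of 58 were lower, where 5.53% of all features were, and 2 of 58 were higher, where 5.02% were. Lfng alone passed the adjusted threshold, at which 0.403% of all features were lower. Among the further probes of these genes, those of Lfng, Adam10 and Itch were lower and those of Ncstn and Psen2 higher at the unadjusted threshold. Hes3, a Hes family repressor, was well above background on 0 of 6 arrays.

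Among the enzymes that add sugars to Notch receptors (5 genes, median -0.16), both lower genes were Fringe glycosyltransferases, which tune the response of the receptor to its ligands. Lfng read 7.07, 7.28 and 7.29 in Wnt4hi and 10.83, 9.91 and 10.73 in Wnt4low. It was well above background on 1 Wnt4hi array and all Wnt4low arrays, and the populations were far apart. The measured difference was -3.28 (SE 0.27, limma adjusted p = 0.0238), but the Wnt4hi values lay near the lowest signals called well above background on those arrays (6.98 to 7.63), so its size is uncertain. A second Lfng probe gave -1.67 (SE 0.66, adjusted p = 0.434), and with the mean of both the adjusted p was 0.0818. The adjusted call of Lfng was also lost in the authors' table (adjusted p = 0.119) and without any 1 array other than Wnt4low replicate 3 (adjusted p from 0.0537 to 0.129). Mfng was lower by a smaller step (-0.89, SE 0.35, adjusted p = 0.444).

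Of 10 other targets (median -0.08), 4 were lower at the unadjusted threshold and 0 higher. Nrarp, a Notch target that feeds back on the receptor complex, read 8.95, 7.90 and 7.62 in Wnt4hi and 10.59, 10.59 and 11.60 in Wnt4low. The populations were separated, and Nrarp was well above background on 2 of the 3 Wnt4hi arrays. Its difference was -2.77 (SE 0.44, limma adjusted p = 0.0761), a size left uncertain by the Wnt4hi array that was not well above background. The Hey family members Heyl (-1.91, SE 0.54, adjusted p = 0.262) and Hey2 (-1.09, SE 0.37, adjusted p = 0.366) and the repressor Bhlhe40 (-1.26, SE 0.49, adjusted p = 0.445) completed the group, with Hey2 overlapping between the populations. Hey2 and Bhlhe40 were each well above background on 2 of the 3 Wnt4hi arrays, so the sizes of their differences are uncertain. The other 6 targets, Hes2, Hes3, Hes5, Hes6, Hes7 and Sox9, lay between -0.29 and 0.36 and none passed.

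Calls among genes of the shared machinery were mixed in direction once all probes were counted. Of 9 genes of receptor cleavage (median -0.17), 1 was called, the metalloprotease Adam10, which makes the first ligand-dependent cut (-0.62, SE 0.18, adjusted p = 0.282), and its second probe gave -0.93 (adjusted p = 0.312). For the gamma-secretase subunits Ncstn and Psen2 the brighter probes were not called (0.08 and 0.92), but their other probes were higher in Wnt4hi at the unadjusted threshold, without overlap, at 1.1 (SE 0.25, adjusted p = 0.168) and 0.67 (SE 0.23, adjusted p = 0.350). Of 10 genes of the nuclear complex (median -0.05), 1 was called, the coactivator Maml2 (-0.85, SE 0.30, adjusted p = 0.383). Rbpj, the DNA-binding partner of the Notch intracellular domain and named here for that role after its value was seen, gave -0.08 (SE 0.25, adjusted p = 0.949), and its other probe, well above background on all arrays, gave -0.60 (SE 0.27, adjusted p = 0.509). Both Rbpj probes overlapped between the populations. Of 8 nuclear repressors, 7 were higher in Wnt4hi and 0 were called by their brighter probe (median 0.26).

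Trafficking and ubiquitin ligase genes (13 genes, median -0.24) went both ways. Numb, an endocytic inhibitor of Notch, differed by -1.94 (SE 0.76, adjusted p = 0.450), with overlapping populations and 2 of 3 Wnt4hi arrays well above background. The size of the Numb difference is therefore uncertain. The ubiquitin ligase Itch was lower (-0.64, SE 0.22, adjusted p = 0.368). The ubiquitin ligases Neurl1a, which acts on ligands (0.64, SE 0.25, adjusted p = 0.453), and Dtx1, a Deltex protein (0.61, SE 0.16, adjusted p = 0.225), were the 2 genes called higher in Wnt4hi. The other DSL and DLK ligands, Dll3, Dlk1 and Dlk2, lay between -0.39 and 0.50 and 0 of 3 were called. Dll3, at the upper end, was well above background on 1 Wnt4hi array and 0 Wnt4low arrays, so its difference is uncertain.

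**Figure D4:**
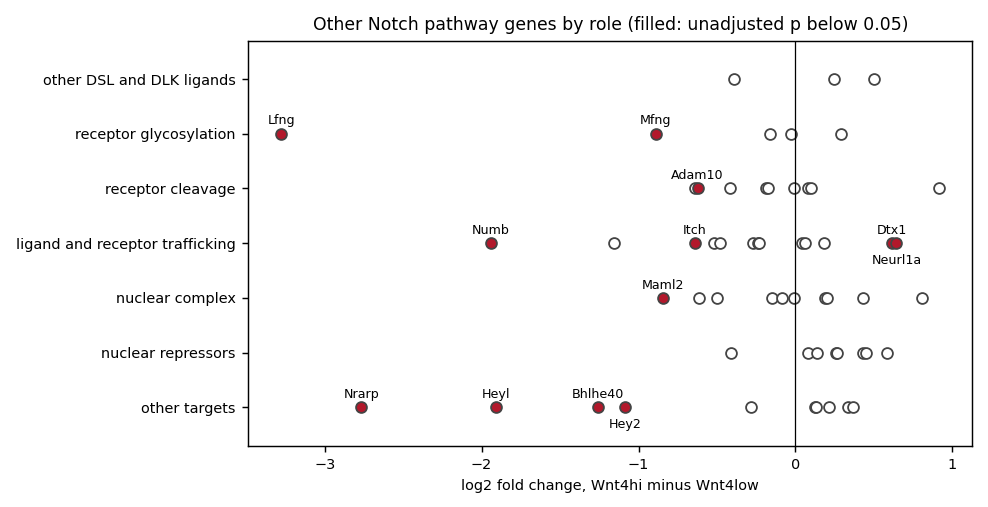
Log2 difference (horizontal axis, Wnt4hi minus Wnt4low) of the 58 other Notch pathway genes measured, 1 point per gene, by role (vertical axis), filled where the unadjusted limma p is below 0.05. The 10 filled points below 0 include Lfng and 4 targets, and the 2 above 0 are Dtx1 and Neurl1a.

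The 6 arrays lay on 1 slide from 1 scan, so that no batch was tested. Of 59305 spots that are not controls, 70.5% to 79.5% were well above background in Wnt4hi and 73.1% to 76.9% in Wnt4low, and 0 were saturated. The ratio of median signal to median background was 10.8 to 15.6 in Wnt4hi and 12.2 to 14.4 in Wnt4low. Over all features 184 were lower and 16 higher in Wnt4hi after adjustment. The labels do not say whether same-numbered samples share pups, and p-values measure the spread between these pools.

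Across the other ways of processing, the differences of Notch3, Jag1 and Hey1 stayed below 0 and past the unadjusted threshold in all 20 settings run for each, 6 of which left out an array. Over these settings, Notch3 ranged from -1.76 to -1.28, Jag1 from -2.81 to -2.10 and Hey1 from -3.84 to -2.74. Notch4 did so in 20 of 21 settings, the exception being its other probe.

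**Figure D5:**
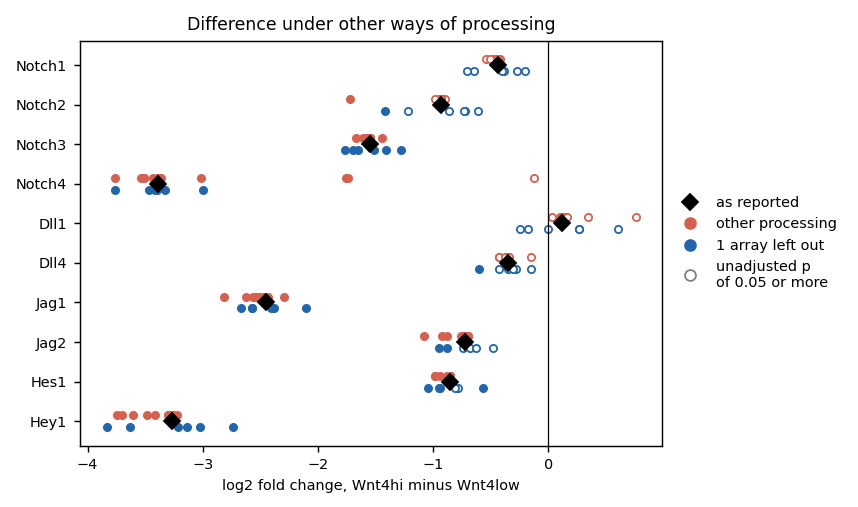
Log2 difference (horizontal axis, Wnt4hi minus Wnt4low) of each Notch member as reported (diamonds), under other ways of processing (red) and with 1 array left out (blue), with open points where the unadjusted p is 0.05 or more. Notch3, Jag1 and Hey1 stay filled and below 0 throughout, whereas Dll1 lies on both sides of 0.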

How the data were processed

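RNA of sorted islet cells was amplified (Ovation PicoSL WTA V2) and its Cy5-labelled cDNA was read on SurePrint G3 Mouse v2 arrays. The authors deposited scanner output (Agilent Feature Extraction 12.0.1.1 per the file headers, 9.1 per the submitters' processing notes) with unnormalized red intensities for spots and their surroundings. A second table that the authors deposited holds normalized log2 values, whose row filter and treatment of probes are not given in the sources used here.

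Median spot intensities were background-corrected with normexp (offset 50) over all spots and quantile-normalized with limma (version 3.58.1, R 4.3.3), after the study's methods. Control and outlier spots (50 to 141 per array) were left out, and spots of 1 probe were averaged. Of 27845 RefSeq-type probe names, 25126 matched a table of GRCm38.p6. The brightest probe stood for a gene (45616 features), and other probes were fitted as features of their own. A spot is called well above background as the scanner software marks it, and a probe on an array where at least 0.5 of its spots are. Wnt4hi and Wnt4low were compared with lmFit and eBayes with no covariate, p-values were adjusted over all features by Benjamini-Hochberg, and intervals are 95%. An unadjusted threshold of 0.05 follows the study's methods. Permuting 3 against 3 arrays gives a two-sided p of at least 0.1 and was not used.

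Genes described with their values are the members, Wnt4 and those other pathway genes past the unadjusted threshold with signal well above background throughout the higher population. A few other pathway genes and probes are named outside that rule, after their values were seen. Members, pathway and marker lists were chosen with earlier results of these data known, and they support nothing on their own. Alternatives changed background correction, normalization, the filter on dim probes, outlier spots, the choice of probe and the variance model. They also changed the test (an unpaired t-test), the values (the authors' table) and the replicate block, and left out each array. The study used the unpaired t-test outside its arrays, which it analysed with limma and empirical Bayes. Promoter windows came from RefSeq, with motifs searched on both strands. Values of some pathway genes are not reported here. The number of arrays limits the precision.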

Additional observations from a re-analysis of the deposited data

How the results depend on the processing

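Of the 10 Notch members, 6 passed the unadjusted threshold, and 4 to 7 did under every alternative run. The 1 member past the adjusted threshold was less stable. The count was 2 with no background subtraction, with an offset of 16, with the processed signal, with median centring and with a random replicate block, and 3 with the filter on dim probes (Notch4, Jag1 and Hey1). It was 0 with the unpaired t-test and with a fixed replicate block, and 0 with any single array left out. With the mean of all probes of a gene the count was 1 but the gene was Jag1 (adjusted p = 0.0490) and not Notch4 (adjusted p = 0.0518). The authors' table gave 1, Hey1 (-3.70, adjusted p = 0.0182), with Notch4 at -1.74 (adjusted p = 0.0628), and that table has no row for the Notch2 probe. Over all features, 200 passed the adjusted threshold, 504 with the filter on dim probes and 406 in the authors' table. The number over all features was 0 with the unpaired t-test (4044 at an unadjusted p under 0.05), 0 with the fixed block (4845) and 0 to 5 with an array left out. Of the 58 other pathway genes, 12 passed the unadjusted threshold, where 4810 of all 45616 features did. With the unpaired t-test 5 passed, where 4044 features did. With an array left out 6 to 12 passed, where 4071 to 5023 features did. The lower of these pathway counts lie near the share of all features. Dll1 ranged from -0.25 to 0.61 with an array left out and turned to -0.0046 without Wnt4hi replicate 3, -0.25 without Wnt4hi replicate 4 and -0.18 without Wnt4low replicate 4. The cause was not tested.

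The populations share replicate numbers 3 and 4, whose deviations from the population means correlated at -0.03 and 0.16, and the numbers were not taken to pair the samples. Replicates 1 and 2 each occur in 1 population, so differences with the fixed replicate block rest on replicates 3 and 4 alone. With that block, Notch2 (-1.72, limma adjusted p = 0.0815) passed the unadjusted threshold. Notch4 (-3.02, adjusted p = 0.0580) and Lfng (-3.04, adjusted p = 0.0593) missed the adjusted one, which Lfng also missed with the unpaired t-test. The values of Wnt4hi replicate 2 in the authors' table followed the scanner values of that array less closely (correlation of deviations 0.27) than those of the other arrays (0.84 to 0.87). Low signal limits Jag2, which the filter on dim probes removed.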
